A study of Mus musculus with 6 samples.

Results

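Ephrin-B ligands and EphB receptors were examined as a family of 8 genes, among 54532 genes measured by RNA sequencing in mouse hearts with and without Mrps5, which encodes a protein of the mitochondrial ribosome's small subunit. The family was chosen by the measured cKO and Ctrl values of 1 of its genes, Efnb3, which was among the genes with the lowest cKO-to-Ctrl ratio in these hearts. The other 7 genes were added by name, as the remaining ephrin-B ligands (Efnb1 and Efnb2) and the EphB receptors (Ephb1, Ephb2, Ephb3, Ephb4 and Ephb6). The question was whether the loss of Efnb3 was shared by its relatives. Because Efnb3 was selected on this comparison, its values are described and not tested, and tests are given for the relatives.

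The 3 control hearts (Ctrl) came from Mrps5 fl/fl mice, in which both alleles of Mrps5 are flanked by loxP sites. The 3 conditional knockout hearts (cKO) came from Mrps5 fl/fl; MCM mice, which carry in addition the MerCreMer transgene, a tamoxifen-inducible Cre recombinase driven by the αMHC promoter and therefore active in cardiomyocytes. Mice of both groups received intraperitoneal tamoxifen at 45 mg/kg/day for 5 days from 8 weeks of age, and hearts were sampled 12 weeks after it. Ctrl mice lacked the transgene, so the deletion and the Cre recombinase itself cannot be told apart. The methods describe littermates and ventricular tissue, and they give a lower age at harvest than these labels imply. Whole tissue was used, so fewer cells of a type and less RNA per cell cannot be told apart either.

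Ephrin-B ligands are transmembrane proteins and EphB receptors are receptor tyrosine kinases, and both sit on the surface of touching cells. Binding signals in both directions: forward through the receptor's kinase into small GTPases of the cytoskeleton, and in reverse through the ligand's cytoplasmic tail, which is phosphorylated by Src-family kinases and binds adaptor and PDZ-domain proteins. In the vasculature, ephrin-B2 marks arterial and EphB4 marks venous endothelium, and the pair is needed for vessel remodelling. Ephrin-B1 has been placed at the lateral membrane of cardiomyocytes. Ephrin-B3 is best known from the nervous system, where it repels growing axons at the midline.

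The upstream stretches of the ligand Efnb2 and the receptor Ephb4 are shown because this known ligand and receptor pair fell together, with log2 fold changes of -0.49 and -0.48. RefSeq promoter entries on GRCm38.p6 matched 7 of the 8 members. Efnb3 was the member without an entry, so its upstream stretch was not searched. The 250 bases before the annotated start are printed from 5′ to 3′ on the gene's strand, at chr8:8661243-8661492 (minus strand) and chr5:137349859-137350108 (plus strand). Capitals mark GGGCGG, the core of the GC box, or its reverse complement CCGCCC.
Efnb2: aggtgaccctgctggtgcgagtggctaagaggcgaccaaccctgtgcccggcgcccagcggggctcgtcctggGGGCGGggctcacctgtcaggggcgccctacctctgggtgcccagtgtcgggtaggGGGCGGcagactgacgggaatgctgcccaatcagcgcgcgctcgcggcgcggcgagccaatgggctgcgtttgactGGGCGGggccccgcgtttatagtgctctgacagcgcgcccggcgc
Ephb4: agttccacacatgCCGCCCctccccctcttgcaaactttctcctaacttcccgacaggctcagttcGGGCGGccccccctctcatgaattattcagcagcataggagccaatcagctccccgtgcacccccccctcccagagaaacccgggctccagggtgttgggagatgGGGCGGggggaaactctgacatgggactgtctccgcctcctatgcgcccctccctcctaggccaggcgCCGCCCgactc

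The stretch of Efnb2 held 3 such sites and that of Ephb4 held 4. The same letters were found in 32.7% of the 32851 promoters of this length. Among the other members, Ephb3 held 2 sites, Ephb6 held 5, and Efnb1, Ephb1 and Ephb2 held 0. Efnb1, which also fell, was thus without a site, and Ephb6, which was too low to be tested, held the most. The stretch of Efnb1 ended at 99136060, upstream of its gene start at 99136130. Unlike in the other members, the bases after it did not open a GENCODE transcript, so the start used for Efnb1 is less certain. The E-box CACGTG and the cyclic AMP response element core TGACGT were each searched on both strands too, and neither occurred in any of the 7 stretches, against 6.02% and 6.47% of all promoters. The GC content was 72% for Efnb2 and 64% for Ephb4, against a median of 52.4% over all upstream stretches. It was 76.8% for Ephb6, 68.4% for Ephb2, 65.6% for Ephb3, 60% for Efnb1 and 54% for Ephb1. A GC content above the median was thus not particular to the pair.

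Levels are given as FPKM, fragments per kilobase of gene scaled to a library size. This allows genes of different length to be set side by side. The 6 libraries held 15989322 to 24875499 reads that fell within genes, with no separation of the groups by depth. The library size implied by the FPKM did separate them, at 0.913 to 0.980 times these reads in Ctrl and 1.059 to 1.062 times in cKO. Scaling to the reads themselves would give higher cKO levels relative to Ctrl and was not run. A further median-of-ratios scaling, used as an alternative, had factors of 0.995 to 1.014 and changed the values little. Values per heart are listed in the order of replicates 1, 2 and 3. A gene was tested if its mean over all hearts reached 0.5 FPKM, on log2(FPKM + 1) with limma and Benjamini-Hochberg adjustment over all 12944 genes tested. Of these, 2205 genes (17%) were lower and 2110 (16.3%) were higher in cKO at an adjusted p under 0.05, and the median log2 fold change was -0.02. Scaling the libraries without mtDNA-encoded genes gave 1621 lower and 2649 higher. Mrps5 stood at 5.20, 6.45 and 6.33 FPKM in the Ctrl hearts against 1.12, 1.23 and 1.31 FPKM in the cKO hearts (log2 fold change -1.65, SE 0.0944, limma adjusted p 0.000202). The library labelled cKO replicate 2 stood apart: Ddx3y, Kdm5d, Uty and Eif2s3y, all Y-linked, were at 0 and Xist was at 10.7 FPKM, against at most 0.127 FPKM in the other hearts, whereas the methods describe male mice. Atrial markers (Myl7, Myl4 and Sln) summed to 990 FPKM in Ctrl replicate 1 and 714 FPKM in cKO replicate 3, against 25.2 to 221 FPKM in the other 4 hearts. Results of the family are therefore given with and without these hearts, and the analysis without the 2 atrial-marker-rich hearts was added after the data were seen. The cardiomyocyte markers were high in every heart, at a sum of 6071 to 12625 FPKM, with none at 0.

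Of the 7 relatives of Efnb3, 3 were past the threshold and lower in cKO, and 0 were past it and higher. Efnb2, Efnb1 and Ephb4 fell to 63.4%, 75.5% and 69.8% of their Ctrl means, whereas Efnb3 was at 12.7%. Ephb3, also lower in the mean, was at 69.0% of Ctrl without passing the test, and Ephb1, Ephb2 and Ephb6 lay under the minimum for testing. The 4 relatives tested exceeded 0.5 FPKM in every heart, so none passed through 1 group alone. Their median log2 fold change was -0.42, beside -0.02 over all genes tested, and 17% of all genes tested were called lower. The count of 3 was not stable. It was 1 without Ctrl replicate 1, Ctrl replicate 3 or cKO replicate 2, 1 with no minimum level or with scaling without mtDNA-encoded genes, and 0 without both atrial-marker-rich hearts.

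Efnb3 (ENSMUSG00000003934, chromosome 11, 69554092 to 69560205, minus strand) was measured at 39.3, 54.5 and 37.3 FPKM in Ctrl, where 2382, 3606 and 2872 reads stood behind these values. The cKO hearts gave 3.67, 5.27 and 7.73 FPKM and 198, 392 and 619 reads. The lowest Ctrl heart was thus well above the highest cKO heart. The mean of 43.7 ± 9.40 FPKM in Ctrl was 7.85 times that of 5.56 ± 2.04 FPKM in cKO (SD, n = 3 each), and the log2 fold change was -2.79. This was the value with rank 2 from the bottom among the genes tested. Without cKO replicate 2 the log2 fold change was -2.79, and without the 2 hearts rich in atrial markers it was -3.09. In Ctrl hearts the level of Efnb3 was at rank 947 from the top of the 12944 genes tested.

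**Figure D1:**
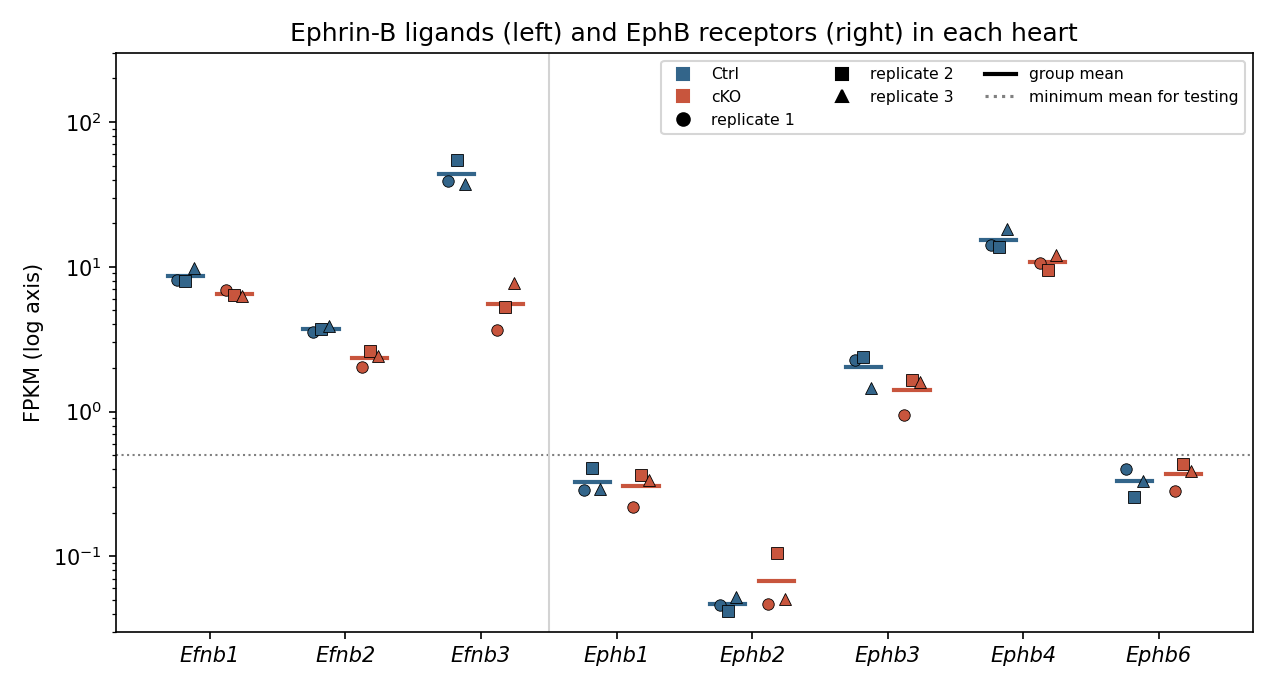
FPKM on a log axis of the 3 ephrin-B ligands and 5 EphB receptors in each heart, Ctrl in blue and cKO in red, with the replicate shown by the symbol and the group mean by the bar. Efnb3 lies at 43.7 FPKM in the Ctrl mean and 5.56 FPKM in the cKO mean, Efnb1, Efnb2 and Ephb4 show smaller gaps without overlap, and Ephb1, Ephb2 and Ephb6 lie under the dotted line at 0.5 FPKM in both means.

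Efnb2, the arterial ligand (ENSMUSG00000001300, chromosome 8, 8617434 to 8661242, minus strand), kept its call in more alternative analyses than any other relative. It measured 3.54, 3.72 and 3.88 FPKM across Ctrl, compared with 2.04, 2.61 and 2.41 FPKM across cKO. All cKO hearts were below all Ctrl hearts, as for 26.4% of the genes tested, and the spread in each group was narrow against the gap. The means were 3.71 ± 0.167 and 2.35 ± 0.286 FPKM (SD, n = 3 each), from 1636 and 1070 reads summed over the hearts of each group. This was a log2 fold change of -0.49 with an SE of 0.0868 (limma, adjusted p 0.00666). Without cKO replicate 2 it was -0.55 (adjusted p 0.00812). Without the 2 atrial-marker-rich hearts it was -0.53 and missed the threshold (adjusted p 0.0538), with 2 hearts left in each group. Efnb2 passed in the other 15 of the 16 alternative analyses, in all of which it was lower in cKO.

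Efnb1, the X-linked ligand (ENSMUSG00000031217, chromosome X, 99136130 to 99148991, plus strand), stood at 8.11, 8.04 and 9.81 FPKM in the Ctrl hearts against 6.97, 6.40 and 6.24 FPKM in the cKO hearts. The groups did not overlap, but the gap between the lowest Ctrl and the highest cKO heart was small. From means of 8.65 ± 1.00 and 6.54 ± 0.380 FPKM (SD, n = 3 each), the estimate was a log2 fold change of -0.35 with an SE of 0.0938 (limma, adjusted p 0.0276). This call was lost without some single hearts. The adjusted p was 0.0581 without cKO replicate 2, 0.0812 without cKO replicate 3, 0.0509 without Ctrl replicate 1, 0.0711 without Ctrl replicate 3 and 0.129 without both atrial-marker-rich hearts, with the log2 fold change between -0.40 and -0.27 over all alternatives. It was also lost when libraries were scaled without mtDNA-encoded genes (adjusted p 0.0839) and when no minimum level was set (adjusted p 0.0579).

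Efnb1 and Efnb2 were not higher in the hearts in which Efnb3 was low. The 3 ligands together came to 50.9, 66.2 and 51.0 FPKM in Ctrl and to 12.7, 14.3 and 16.4 FPKM in cKO replicates 1, 2 and 3. Efnb3 supplied 77.1%, 82.3% and 73.2% of this sum in Ctrl and 29.0%, 36.9% and 47.2% in cKO. Efnb1 and Efnb2 together went from 12.4 ± 1.14 to 8.89 ± 0.204 FPKM (SD, n = 3 each; two-sided exact permutation p 0.1, the smallest that 3 against 3 hearts allow). The ligand with the highest level was Efnb1 in cKO replicates 1 and 2 and Efnb3 in cKO replicate 3 and in all Ctrl hearts.

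**Figure D2:**
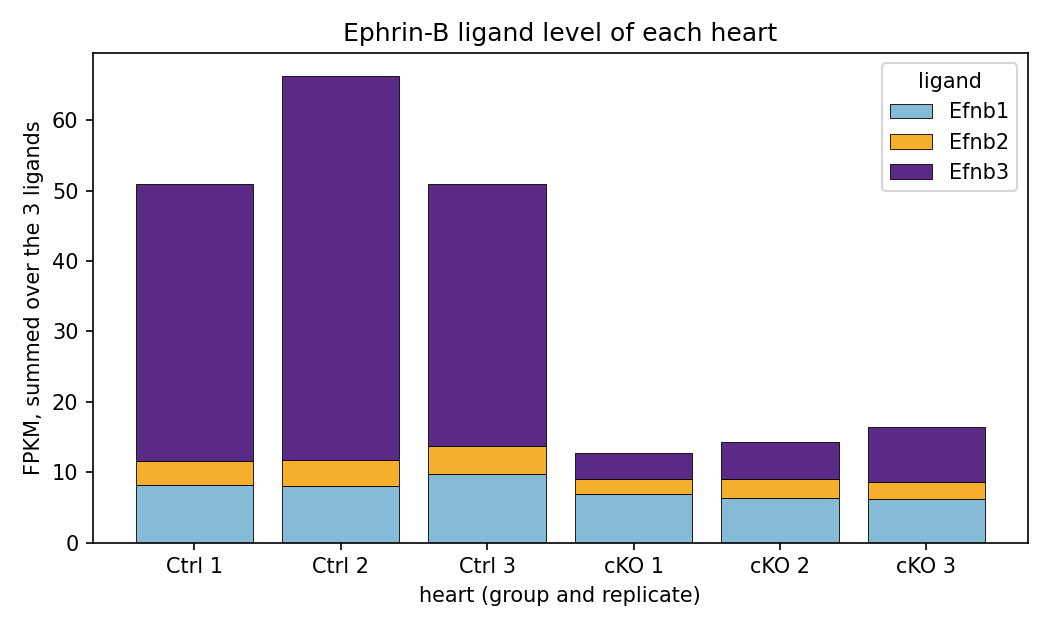
Stacked bars of the FPKM of Efnb1, Efnb2 and Efnb3 in each of the 6 hearts, 1 bar a heart. The summed level was 50.9 to 66.2 FPKM in Ctrl and 12.7 to 16.4 FPKM in cKO, and the part of Efnb3 was the largest in every Ctrl heart.

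Among the receptors, Ephb4, the venous endothelial partner of ephrin-B2 (ENSMUSG00000029710, chromosome 5, 137350109 to 137378669, plus strand), carried most of the RNA. It measured 14.2, 13.8 and 18.1 FPKM across Ctrl, compared with 10.5, 9.45 and 12.1 FPKM across cKO. Every cKO heart was below every Ctrl heart, with Ctrl replicate 3 the highest of all. The means were 15.4 ± 2.42 and 10.7 ± 1.36 FPKM (SD, n = 3 each), from 4618 and 3270 reads. This was a log2 fold change of -0.48 with an SE of 0.131 (limma, adjusted p 0.0307). As for Efnb1, single hearts decided the call: the adjusted p was 0.0716 without cKO replicate 2, 0.0761 without cKO replicate 1, 0.0550 without Ctrl replicate 1, 0.0770 without Ctrl replicate 3 and 0.0640 without both atrial-marker-rich hearts. With scaling that leaves out mtDNA-encoded genes it was 0.0724, and with no minimum level it was 0.0729. The direction was the same in all 16 alternatives.

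Ephb3, a receptor that shares ligands with Ephb2 (ENSMUSG00000005958, chromosome 16, 21204755 to 21223305, plus strand), stood at 2.26, 2.37 and 1.46 FPKM in the Ctrl hearts against 0.952, 1.66 and 1.59 FPKM in the cKO hearts. The groups overlapped, since Ctrl replicate 3 was below cKO replicates 2 and 3. The log2 difference was -0.34 (SE 0.167, 95% interval -0.73 to 0.06, limma adjusted p 0.165), so a decrease of the size seen for Ephb4 and no change both lie within the interval. No alternative brought it past the threshold, with adjusted p between 0.0771 and 0.389.

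The other receptors were near the lower end of what these libraries could measure. Ephb1, a receptor known from axon guidance (ENSMUSG00000032537, chromosome 9, 101922128 to 102354693, minus strand), measured 0.285, 0.405 and 0.289 FPKM across Ctrl, compared with 0.219, 0.367 and 0.335 FPKM across cKO, from 146 and 145 reads. Ephb6, whose kinase domain is inactive (ENSMUSG00000029869, chromosome 6, 41605482 to 41620509, plus strand), stood at 0.403, 0.255 and 0.329 FPKM in the Ctrl hearts against 0.282, 0.431 and 0.390 FPKM in the cKO hearts, from 79 and 93 reads. Both overlapped between the groups. Ephb2, another receptor of axon guidance (ENSMUSG00000028664, chromosome 4, 136647539 to 136835988, minus strand), had 11, 11 and 16 reads in Ctrl and 10, 31 and 16 reads in cKO, or 0.0419 to 0.0525 and 0.0469 to 0.105 FPKM. When genes were tested without a minimum level, the adjusted p was 0.866 for Ephb1, 0.745 for Ephb6 and 0.578 for Ephb2. No difference in these receptors was detected, from 11 to 16 reads a Ctrl heart for Ephb2 and 79 to 146 reads a group for the other 2.

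The 5 EphB receptors summed to 18.1 ± 1.90 FPKM in Ctrl and 12.9 ± 1.44 FPKM in cKO (SD, n = 3 each), or 71.1% of Ctrl, without overlap (two-sided exact permutation p 0.1, the smallest possible). Ephb4 made up 84.6% of the sum in Ctrl and 83.3% in cKO (exact permutation p 0.7). The ratio of Efnb2 to Ephb4 was 0.245 ± 0.0286 in Ctrl and 0.223 ± 0.0460 in cKO and overlapped (exact permutation p 0.6). The ratio of all ephrin-B to all EphB RNA, which Efnb3 dominates and which is therefore given without a test, was 3.14 in Ctrl and 1.12 in cKO.

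The order of levels in Ctrl was Efnb3, Ephb4, Efnb1, Efnb2, Ephb3, Ephb6, Ephb1 and Ephb2. Neighbours in this order did not overlap over the 3 hearts, except Ephb6 and Ephb1, at 0.329 and 0.326 FPKM. In cKO the order was Ephb4, Efnb1, Efnb3, Efnb2, Ephb3, Ephb6, Ephb1 and Ephb2. There Efnb1 and Efnb3 overlapped, at means of 6.54 and 5.56 FPKM, and so did Ephb6 and Ephb1. The place of Efnb3 was therefore the difference between the orders, from 2.84 times the level of Ephb4 in Ctrl to below it in every cKO heart.

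Markers of endothelium, the known site of Efnb2 and Ephb4, moved in the same direction. Of 8 endothelial markers, 5 fell (Pecam1, Cdh5, Tie1, Tek and Flt1) and 0 rose, and Kdr, Emcn and Cldn5 did not pass. Over all genes tested, 17% were lower and 16.3% were higher. The sum of the 8 markers was 160, 146 and 176 FPKM in Ctrl and 105, 115 and 108 FPKM in cKO replicates 1, 2 and 3. This was a mean of 68.0% of Ctrl, with none at 0 in any heart. Of 4 arterial markers 3 fell (Sox17, Dll4 and Hey1), and the sum of the 4 was 15.1 to 17.6 FPKM in Ctrl and 9.78 to 11.6 FPKM in cKO, 64.5% of Ctrl in the mean. With no minimum level, the calls of Sox17 and Hey1 were lost (limma adjusted p 0.116 and 0.0582). Set against the endothelial sum of the same heart, Efnb2 was at 2.32% in Ctrl and 2.15% in cKO and overlapped (exact permutation p 0.6). Ephb4 was at 9.51% and 9.83% (exact permutation p 0.8) and Ephb3 at 1.29% and 1.27% (exact permutation p 1). Efnb1 was at 5.37% and 5.99% on this scale, with every cKO heart above every Ctrl heart (exact permutation p 0.1, the smallest possible). With 3 against 3 hearts, these permutations of the ratios cannot show that a ratio was unchanged. The part of the endothelial level in the decreases of these 4 genes was not tested.

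Markers of other cell types moved as well. Of 7 cardiomyocyte markers, 5 fell (Tnnt2, Tnni3, Ryr2, Myl2 and Pln) and 0 rose, beside 17% lower and 16.3% higher over all genes tested. The sum of these markers was 10695 to 12625 FPKM in Ctrl and 6071 to 9240 FPKM in cKO, 66.8% in the mean. The single markers ranged from 37.3% (Pln) to 93.3% (Actn2) of Ctrl. Efnb3 set against this sum was at 19.3% of its Ctrl value, a description only, since Efnb3 was selected on these values. Which cell type carries Efnb3 was not tested. Of 5 tested mural markers 2 rose (Cspg4 and Acta2) and 1 fell (Rgs5), and Rgs5 alone went from 123 to 58.3 FPKM. Of 5 fibroblast markers 1 rose (Col1a1) and 1 fell (Dcn), with a sum at 86.1% of Ctrl. Among immune markers Csf1r fell and 0 rose of 3 tested. With no minimum level, the calls of Myl2, Acta2, Col1a1 and Csf1r were lost (limma adjusted p 0.174, 0.113, 0.0576 and 0.0526). No marker of any list was at 0 in any heart. The 3 atrial, 4 erythroid and the single tested Schwann marker did not pass. The mural, Schwann and erythroid sums were at 68.9%, 64.1% and 64.4% of Ctrl, beside 68.0% for the endothelial and 66.8% for the cardiomyocyte sum. Rgs5 made up most of the mural sum of 158 FPKM in Ctrl, whereas Acta2 and Cspg4 stood at 193% and 211% of Ctrl. The Schwann sum was only 1.45 FPKM in Ctrl. The immune and atrial sums were at 83.2% and 89.7% of Ctrl. The groups overlapped for the erythroid, immune and atrial sums. The part of these cell types in the family's values was not tested.

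**Figure D3:**
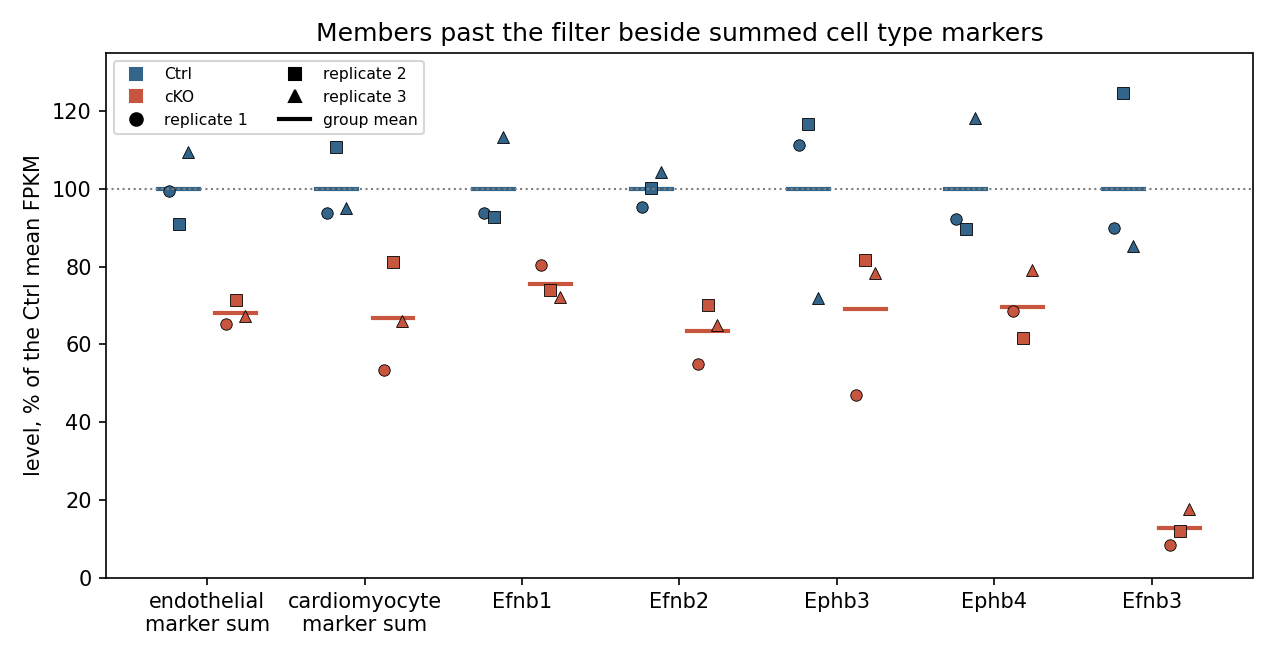
Level of the 5 members past the filter and of the summed endothelial and cardiomyocyte markers in each heart, as a percentage of the Ctrl mean FPKM, with group means as bars. The cKO means of Efnb2, Ephb3 and Ephb4 (63.4%, 69.0% and 69.8%) lie close to those of the endothelial (68.0%) and cardiomyocyte (66.8%) sums. That of Efnb1 lies above both sums at 75.5%, and that of Efnb3 lies at 12.7%.

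Beyond the B class, 57 further genes of ephrin and Eph signalling were listed and 43 were tested, of which 7 were lower (16.3%) and 5 higher (11.6%) in cKO. The shares over all genes tested were 17% and 16.3%, and the median log2 fold change of the 43 was -0.06. Of 3 tested ephrin-A ligands 1 rose and 0 fell. Efna5, a ligand known from axon mapping, rose, with 2.44 ± 0.222 FPKM in Ctrl and 3.92 ± 0.830 FPKM in cKO (SD, n = 3 each; log2 fold change 0.51, SE 0.131, limma adjusted p 0.0252). Of 3 tested EphA receptors 2 fell. Epha4, which also binds ephrin-B ligands and is the known receptor of ephrin-B3 in the spinal cord, measured 4.35, 3.38 and 3.64 FPKM across Ctrl, compared with 1.36, 2.29 and 2.90 FPKM across cKO (log2 fold change -0.61, SE 0.185, limma adjusted p 0.0417). Epha2 had a log2 fold change of -0.25 (adjusted p 0.0381). All 3 calls were lost without most single hearts. Efna5 and Epha2 still passed with cKO replicate 2 left out and Epha4 with cKO replicate 3 left out, and with any other heart left out none of the 3 passed, at an adjusted p of up to 0.0808 for Efna5, 0.108 for Epha2 and 0.119 for Epha4.

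Of 10 tested genes that act at the ephrin-B tail, 4 fell and 0 rose, beside 17% lower and 16.3% higher over all genes tested. These were the Src-family kinase Yes1 (log2 fold change -0.39), the regulator of G-protein signalling Rgs3 (-0.39), the Dishevelled protein Dvl2 (-0.31) and the SH2 and SH3 adaptor Nck1 (-0.25), with limma adjusted p of 0.0086, 0.0136, 0.0325 and 0.0378. Yes1 and Rgs3 passed with any single heart left out, while the call of Dvl2 was lost without each heart other than Ctrl replicate 1 (adjusted p 0.0519 to 0.103) and that of Nck1 without each of the 6 (0.0603 to 0.113). Among 19 tested effectors of Eph receptors, the GTPases Cdc42 and Rhoa rose, with log2 fold changes of 0.49 and 0.27 (adjusted p 0.00553 and 0.0190). Cdc42 passed with any single heart left out. Arhgef15, a GTPase exchange factor known from vascular cells, fell, with 8.01 ± 0.199 FPKM in Ctrl and 4.86 ± 1.19 FPKM in cKO (log2 fold change -0.64, adjusted p 0.0182). The calls of Rhoa and Arhgef15 were lost without any 1 of the 3 Ctrl hearts, with adjusted p of 0.0512 to 0.0714 and 0.0522 to 0.0589. Of 8 tested proteases that cut ephrins and Eph receptors, the γ-secretase subunit Psenen rose, with a log2 fold change of 0.27 (adjusted p 0.0241), and 0 fell. The call of Psenen was lost without each heart other than cKO replicate 2 (adjusted p 0.0593 to 0.0791).

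Counted over these 57 genes, leaving out any of the 6 hearts left 2 to 4 lower genes. The higher genes numbered 1 without Ctrl replicate 2 or 3, 2 without Ctrl replicate 1 or cKO replicate 1, 3 without cKO replicate 3 and 5 without cKO replicate 2. With both atrial-marker-rich hearts left out, limma called 0 in either direction.

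Grip1, a PDZ-domain scaffold that binds the ephrin-B tail, is named after its values were seen. It lay under the minimum for testing, at 0.0520, 0.0954 and 0.0410 FPKM in Ctrl and 0.571, 0.446 and 0.434 FPKM in cKO, from 32 and 250 reads summed over the hearts of each group. Every cKO heart was above every Ctrl heart, and the cKO mean was 7.70 times the Ctrl mean. In the analysis without a minimum level its log2 fold change was 0.48 (limma adjusted p 0.00676), a scale that understates a gene at this level. Ngef, a listed effector that also lay under the minimum, did not overlap either, at means of 0.174 FPKM in Ctrl and 0.554 FPKM in cKO. Without a minimum level Ngef did not pass (limma adjusted p 0.112). The share of all genes higher in cKO without overlap was not computed.

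**Figure D4:**
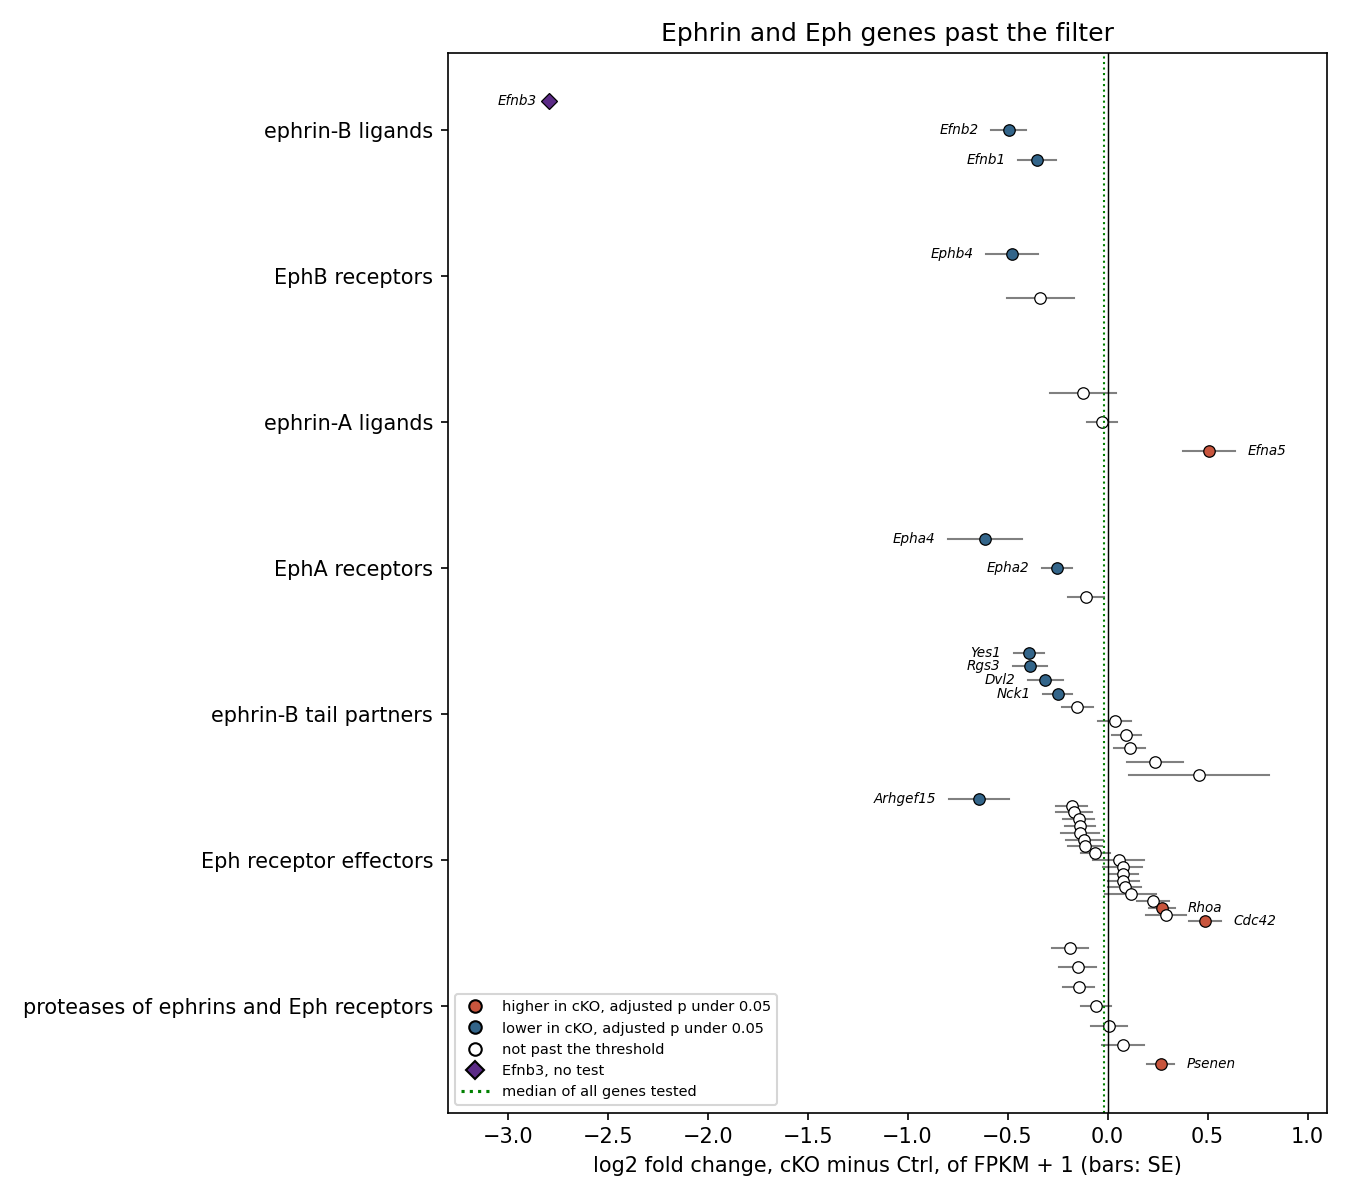
Log2 fold change (cKO minus Ctrl, of FPKM + 1) with its SE of the tested genes reported from the family and the 5 further lists, 1 row a list, with genes past the adjusted p threshold filled and named. The ephrin-B ligands and Ephb4 lie left of 0, with Efnb3 at -2.79, and the further lists spread to both sides of the median of all genes at -0.02.

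The nearest tested genes on either side of Efnb3 did not pass the test. Wrap53, which encodes a telomerase Cajal body protein and lies 1553 bases from Efnb3, was at 3.48 and 3.08 FPKM (log2 fold change -0.14, limma adjusted p 0.333), and Kdm6b, a histone demethylase 140417 bases away on the other side, had a log2 fold change of -0.32 (adjusted p 0.0682). No gene of the table overlapped Efnb3. Arglu1, 3833 bases from Efnb2, fell (log2 fold change -0.24, adjusted p 0.0275), as did Stard8, 61402 bases from Efnb1 (-0.59, adjusted p 0.00294). Pop7, 122769 bases from Ephb4, rose (0.54, adjusted p 0.0251), opposite to Ephb4. Of these, Stard8 passed with any heart left out, whereas the call of Arglu1 was lost without each heart other than cKO replicate 2 (adjusted p 0.0566 to 0.0919) and that of Pop7 without Ctrl replicate 1, Ctrl replicate 2 or cKO replicate 1 (0.0552 to 0.0748). The other tested neighbours were Gm1840, Pja1 and Gm43012, which did not pass. Overlapping genes added little: 3 loci within Efnb2 averaged at most 0.0270 FPKM, Zan overlapped Ephb4 over 33 bases at up to 0.0123 FPKM, and the 9 genes within Ephb1 were at 0.

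Around the receptors at low level, Ky and Gm28979 beside Ephb1 fell, with log2 fold changes of -0.90 and -0.87 (limma adjusted p 0.00304 and 0.00299). Beside Ephb3, Rps10-ps2, a pseudogene of a ribosomal protein whose reads may be shared with its parent gene, rose by 0.28 (adjusted p 0.0381), a call lost without Ctrl replicate 1, Ctrl replicate 3, cKO replicate 1 or cKO replicate 3 (0.0846 to 0.124), and AC126457.1 did not pass. Gstk1 beside Ephb6 fell by 1.24 on the log2 scale (adjusted p 0.00111), and Clec5a did not pass. Kdm1a and C1qb beside Ephb2 had log2 fold changes of 0.00 and -0.12 (adjusted p 0.988 and 0.661).

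The 5 protein-coding genes whose log2(FPKM + 1) over the 6 hearts was most like that of Efnb3 were Gmpr, Mylk4, Tmem65, Macrod1 and Gfra4, with Pearson's r of 0.998 to 0.999. The 6 points fall into the 2 groups, and r over them mostly reflects that, so it is a description without a test. After the group means were removed, r was 0.97 to 0.99 for these 5 genes, which were themselves picked by r. On that scale it was 0.74 for Ephb3, 0.48 for Efnb2, 0.03 for Ephb4 and -0.66 for Efnb1. Gmpr encodes a GMP reductase, Mylk4 a myosin light chain kinase, Tmem65 a mitochondrial and intercalated disc membrane protein, Macrod1 an ADP-ribosylhydrolase and Gfra4 a receptor of the GDNF family. They were at 57.2%, 40.4%, 58.1%, 58.6% and 26.3% of Ctrl. In these genes as in Efnb3, Ctrl replicate 2 was the highest heart and cKO replicate 1 the lowest, which their choice by r over the same hearts favours. Among the tested relatives Ephb3 had the same highest and lowest hearts, while Efnb1, Efnb2 and Ephb4 were highest in Ctrl replicate 3.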

How the data were processed

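Poly-A selected RNA of 6 hearts, 3 Ctrl and 3 cKO, was sequenced as paired ends. The authors deposited FPKM per gene, computed from read counts and gene length, with 1 column per heart, beside gene length as an other, gene-level value. The submitters' processing notes name HISAT2 2.0.5, featureCounts 1.5.0-p3, DESeq2 1.16.1 and the build mm9. The coordinates instead match GENCODE mouse release 21 on GRCm38, with the same start and end for 53585 of 54495 shared identifiers and for all 8 members, so GRCm38 is given. Use of strand and treatment of multiply aligned reads are not given in the sources used here.

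FPKM times gene length gave whole reads for 100% of values (within 0.01 of a read), from which depth was taken. Replicate libraries differed by more than counting noise, with a mean chi-square per gene of 14.3 to 47.3, the highest for pairs with cKO replicate 2. The main test was limma 3.58.1 in R 4.3.3 on log2(FPKM + 1), 2 groups without covariates, two-sided, with a minimum mean of 0.5 FPKM and Benjamini-Hochberg adjustment over all genes. A pseudocount of 1 understates changes of low genes. The fit was tested on simulated data. Single values per heart were compared by two-sided exact permutation. Errors marked ± are standard deviations (n = 3).

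The members and lists were chosen with earlier results of these data known. Named were all members, Mrps5, pathway genes past the threshold (at most 6 per list), the nearest tested and the overlapping genes of each member, the 5 protein-coding genes most correlated with Efnb3, sex-linked checks and markers. A gene selected by this rule is not reported here, though it remains in the counts. Alternatives were a pseudocount of 0.1, no minimum or 1 FPKM, median-of-ratios scaling, scaling without mtDNA-encoded genes, no intensity trend, voom on recovered reads, a replicate block, protein-coding genes alone and each heart left out. Protein sequences were not used here.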

Additional observations from a re-analysis of the deposited data

How the results depend on the processing

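With 3 hearts per group, permutation of single values cannot go below 0.1, and libraries of this depth leave Ephb1, Ephb2 and Ephb6 with few reads. Efnb1, Efnb2, Efnb3, Ephb3 and Ephb4 stayed lower in cKO in all 16 alternatives, and Efnb2 passed in 15, Ephb4 in 9, Efnb1 in 8 and Ephb3 in 0. The relatives lower in cKO, 3 in the main analysis, numbered 1 with no minimum level, for which more genes were tested (26855), and 1 with scaling without mtDNA-encoded genes. Leaving out 1 heart gave 1 to 3. Leaving out both atrial-marker-rich hearts, an alternative chosen after seeing the data, gave 0, with 995 genes higher and 1019 lower over the whole table, from fewer samples. The further pathway genes, 7 lower and 5 higher, became 2 lower with no minimum level, 3 lower with scaling without mtDNA-encoded genes and 0 in either direction without the atrial-marker-rich hearts; leaving out 1 heart gave 2 to 4 lower and 1 to 5 higher. Over the whole table the counts ran from 1396 to 1977 higher and from 1423 to 2011 lower with 1 heart left out. The cause of the changes under mtDNA-free scaling was not tested.

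Replicate numbers were checked for pairing by the correlation of deviations from the group means, which was -0.06, 0.17 and -0.01 for numbers 1, 2 and 3. Hearts with unlike numbers gave -0.14 to 0.16. With 3 hearts per group this check cannot exclude pairing, and the hearts were treated as unpaired in the main analysis. With the replicate block 1874 genes were higher and 1982 lower, the relatives lower numbered 2, since Efnb1 was lost (adjusted p 0.0551), and the further pathway genes lower numbered 4. For the 33 other named genes, 519 comparisons with an alternative left 418 on the same side of the threshold, 90 lost a call and 4 gained one, among them Kdm6b, which passed under the replicate block (adjusted p 0.0464) and without cKO replicate 3 (0.0354). The other 7 turned direction, all in neighbours of Ephb2 near 0. C1qb ran from -0.28 to 0.0508 with 1 heart left out and turned without Ctrl replicate 3 or cKO replicate 2. Kdm1a ran from -0.0457 to 0.0776, turned without Ctrl replicate 1, Ctrl replicate 2, cKO replicate 2 or cKO replicate 3, and was at -0.0358 without the atrial-marker-rich hearts.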
